A study of Mus musculus with 5 samples.

Results

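Oxidative phosphorylation (OXPHOS) genes were followed in single-cell transcriptomes of mouse bone marrow stem and progenitor cells. The members were chosen by symbol alone, as the mitochondrially encoded protein genes (mt-), the nuclear genes whose symbols start with Nduf, Uqcr, Atp5, Cox4i, Cox5, Cox6, Cox7 or Cox8, and the 4 Sdh genes. This gave 101 of the 15287 genes in the table, 88 nuclear and 13 mitochondrially encoded, and all of them passed the filter on low counts. By role, 36 nuclear members belong to complex I, 4 to complex II, 8 to complex III, 15 to complex IV and 15 to complex V, and 10 are assembly factors or related genes.

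All cells came from untreated mice aged 20 weeks with the genotype Fgd5CreERT2/+Rosa26Tomato/+. Every group thus carries a ZsGreen and CreERT2 cassette in 1 Fgd5 allele, and ZsGreen reports the activity of that gene. Lineage-negative, CD45.2+ c-kit+ cells (Lin-kit+) made 3 libraries, here called a, b and c. ZsGreen+ cells of the same gate made the Fgd5+ library, and ZsGreen+ cells that were also Sca1+ CD150+ CD48- made the HSC-Fgd5+ library. The table does not name its 5 libraries, and they were tied to these sorts through the cell numbers that the study states. Title and source labels disagree for both ZsGreen+ samples, here together called reporter-positive, and every comparison between sorts rests on this assignment. The number of mice is not given, so n counts libraries and p-values measure the spread between libraries, which may be technical. The reporter-positive group joins unlike gates with 1 library each, so its spread also holds the difference between gates.

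The libraries held 1339, 4095, 6147, 793 and 519 cells, in the order Lin-kit+ a, b, c, Fgd5+ and HSC-Fgd5+, and from 2166655 to 36080242 unique molecular identifiers (UMIs), each of which counts 1 captured transcript. Of all cell barcodes, 62 occurred in more than 1 library. Genes of the sort followed this assignment. Slamf1, which encodes CD150, was at 1.90 to 3.37 UMIs per 1000000 UMIs of the library (CPM) in the Lin-kit+ libraries and at 35.7 and 38.3 in Fgd5+ and HSC-Fgd5+, whereas Cd48 was at 188 to 199 against 6.24 and 1.85. The Lin-kit+ libraries differed by 1.5 times or more for 343 of 4824 genes with at least 1000 UMIs (7.11%), among them 4 of 94 members, Cox5a, Uqcrfs1, Ndufab1 and mt-Atp8, which are marked where they occur.

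In oxidative phosphorylation, complexes I and II pass electrons from NADH and succinate to ubiquinone, complex III passes them on to cytochrome c, and complex IV hands them to oxygen. Complexes I, III and IV pump protons across the inner mitochondrial membrane, and complex V, the ATP synthase, uses the return of the protons to make ATP. The subunits come from separate genomes. Mitochondrial DNA encodes core subunits of complexes I, III, IV and V, and the cell nucleus encodes the remainder, including every subunit of complex II. Haematopoietic stem cells (HSCs) are known for quiescence and for a reliance on glycolysis that is greater than in their progeny.

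Transcription of many nuclear OXPHOS genes is known to depend on the factors NRF1, GABP (an ETS factor), YY1 and the oestrogen-related receptors (ERR). Because the members moved together, their promoters were searched. RefSeq windows (GRCm38.p6) from 250 bases before to 50 bases after a transcription start were matched for 74 of the 88 nuclear members, 80 windows in all. On either strand, GCGCATGC (NRF1) occurred in 15% of member windows and in 2.71% of all 32851 windows, CCGGAAG (ETS) in 21.2% and 8.86%, AAGATGGC (YY1) in 15% and 2.75%, and TCAAGGTCA (ERR) in 2.5% and 0.423%. At least 1 of the 4 motifs stood in 45% of member windows and in 13.7% of all windows. A match describes the sequence and does not show that a factor binds there.

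The sites below lie upstream of a transcription start in members whose values are given in the next paragraphs, with the matched letters in capitals. For Atp5g3 this start is an internal one, so its site lies within the span of the gene (chr2:73908447-73912464). Where the NRF1 letters overlap on both strands, the joint match is in capitals. They are shown so that members with log2 fold changes (reporter-positive over Lin-kit+ cells) from -1.80 (Cox6a1) to -0.60 (Atp5g2) can be set beside each other.
Cox6a1, NRF1, chr5:115349101-115349130, minus strand: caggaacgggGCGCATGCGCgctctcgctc
Cox6a1, ETS, chr5:115348957-115348986, minus strand: tccccatttccgCTTCCGGcgcgccggtgt
Atp5k, NRF1, chr5:108434430-108434459, minus strand: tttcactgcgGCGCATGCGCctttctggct
Sdhb, NRF1, chr4:140961206-140961235, plus strand: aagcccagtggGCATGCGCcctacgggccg
Ndufb7, ETS, chr8:83566726-83566755, plus strand: agcctagatgacCCGGAAGacactgaaggg
Ndufaf4, NRF1, chr4:24897960-24897989, plus strand: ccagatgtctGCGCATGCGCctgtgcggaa
Sdhd, ETS, chr9:50603878-50603907, minus strand: accgtctcctgcCTTCCGGttcacgcttca
Cox6b1, ETS, chr7:30626125-30626154, minus strand: ctcctctcgcagCTTCCGGccagtcggaat
Atp5g2, NRF1, chr15:102671070-102671099, minus strand: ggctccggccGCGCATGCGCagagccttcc
Atp5g3, ERR, chr2:73911360-73911389, minus strand: ttgttacaaagTGACCTTGAgcgtcttccc

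Cox7a2l, the only nuclear member that passed the test as higher under TMM scaling (trimmed mean of M-values) in reporter-positive cells, had none of the 4 motifs in its window. Neither had Cox7b, which was among the most lowered members (-1.97). The 250 bases before the start of Cox7a2l, on the minus strand of chr17:83514334-83514583, are printed for comparison, and GC made up 52.0% of them.
Cox7a2l, upstream: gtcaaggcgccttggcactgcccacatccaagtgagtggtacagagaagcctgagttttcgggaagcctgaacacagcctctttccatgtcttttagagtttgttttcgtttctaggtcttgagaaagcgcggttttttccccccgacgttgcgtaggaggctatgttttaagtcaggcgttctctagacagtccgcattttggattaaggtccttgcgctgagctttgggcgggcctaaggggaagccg

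Nuclear OXPHOS transcripts took a smaller share of the transcriptome in reporter-positive cells than in Lin-kit+ cells. They made 3.35%, 3.32% and 3.33% of the non-mitochondrial UMIs in Lin-kit+ a, b and c, 2.27% in Fgd5+ and 2.30% in HSC-Fgd5+. The groups did not overlap, and the mean difference of 1.05 percentage points was far larger than the spread among the Lin-kit+ libraries. With 3 against 2 libraries, the exact two-sided permutation test cannot go below p = 0.20, and it gave that value. Cells with 10% or more mitochondrial UMIs had little bearing on this share, which without them was 3.35%, 3.32% and 3.33% in Lin-kit+ and 2.27% and 2.33% in the ZsGreen+ libraries.

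Mitochondrially encoded transcripts did not follow the nuclear ones. They made 3.26%, 3.19% and 3.27% of all UMIs in Lin-kit+ a, b and c, 3.34% in Fgd5+ and 4.8% in HSC-Fgd5+. Both ZsGreen+ libraries were above all Lin-kit+ libraries, but Fgd5+ only narrowly, and without the HSC-Fgd5+ library the difference was 0.102 percentage points against 0.833 with it (p = 0.20, exact permutation test, the smallest possible). In HSC-Fgd5+, 111 cells (21.4%) held 10% or more mitochondrial UMIs, against 3 cells in Fgd5+ and 8, 30 and 33 in the Lin-kit+ libraries. Those 111 cells had a median of 1271 UMIs, and per cell they held 1397 non-mitochondrial and 250 mitochondrial UMIs, where HSC-Fgd5+ cells with 2.5 to 5% held 5202 and 189. Without such cells, the share was 3.84% in HSC-Fgd5+, 3.33% in Fgd5+ and 3.16 to 3.24% in Lin-kit+. A further 99 HSC-Fgd5+ cells (19.1%) held 5 to 10%, with a median of 2469 UMIs, against 3.47 to 5.30% of cells in the other libraries. They remain in every value given without cells of 10% or more.

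**Figure D1:**
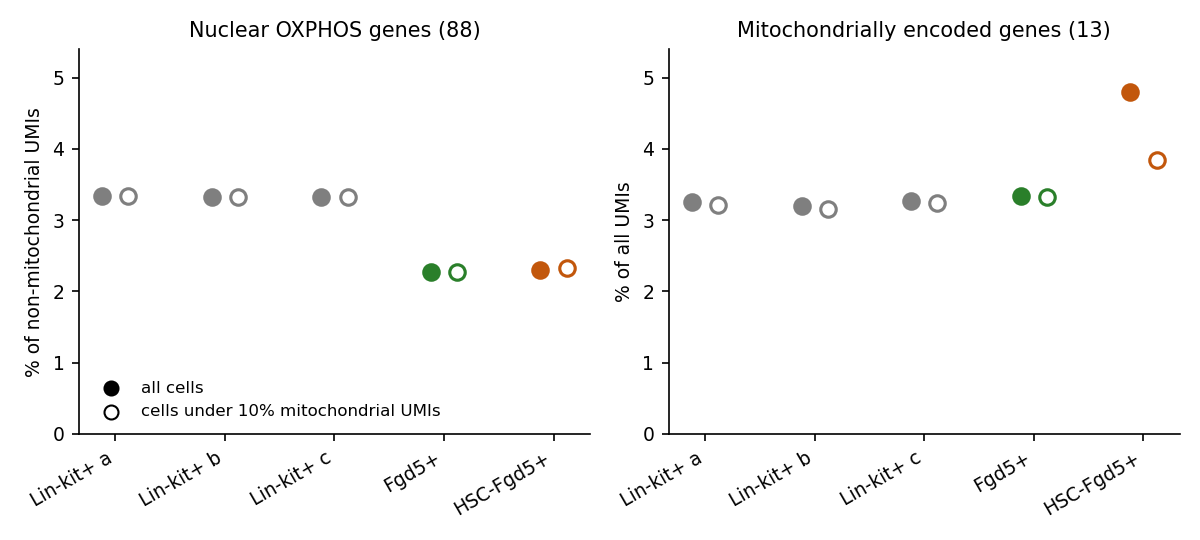
Share of UMIs (%, vertical axes) from the 88 nuclear OXPHOS genes (left, of non-mitochondrial UMIs) and the 13 mitochondrially encoded genes (right, of all UMIs) in each library, with all cells (filled) and with cells under 10% mitochondrial UMIs (open). The nuclear share lies at 3.32 to 3.35% in Lin-kit+ and at 2.27 and 2.30% in the ZsGreen+ libraries, and the mitochondrial share of HSC-Fgd5+ falls from 4.8% to 3.84% when cells of 10% or more are left out.

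The balance of both genomes therefore differed between the sorts. Lin-kit+ a, b and c held 1.01, 0.993 and 1.01 mitochondrially encoded UMIs per nuclear OXPHOS UMI, Fgd5+ held 1.52 and HSC-Fgd5+ 2.20. Without cells of 10% or more mitochondrial UMIs, the ratio in HSC-Fgd5+ was 1.71, and that in Fgd5+ was 1.51. Between the ZsGreen+ libraries, which have no replicate, the nuclear shares were close, with 95% Clopper-Pearson intervals, which cover counting error only, of 2.26 to 2.29% and 2.28 to 2.32%. Of 83 nuclear members with at least 100 UMIs over both libraries, 44 were higher in HSC-Fgd5+ per non-mitochondrial UMI, with a median log2 ratio of 0.01. All 13 mitochondrially encoded genes were higher there, with a median log2 ratio of 0.54, which was 0.22 without cells of 10% or more.

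In summed UMIs, complex IV and complex V differed most among the complexes. Complex IV transcripts made 0.952%, 0.949% and 0.917% of non-mitochondrial UMIs in Lin-kit+ a, b and c and 0.556% and 0.568% in Fgd5+ and HSC-Fgd5+, a ratio of means of 0.598. The ratio was 0.654 for complex V, 0.711 for complex I, 0.747 for complex III and 0.785 for complex II. These sums include Cox5a in complex IV, Uqcrfs1 in complex III and Ndufab1 in complex I, for which the Lin-kit+ libraries differed. Per gene, the median log2 fold changes under TMM were -1.38 for complex IV, -1.24 for complex III and -1.20 for complex V. Scaled by library totals instead, they were -0.85, -0.70 and -0.67. Within complex I, the 7 nuclear core subunits, which carry the flavin and iron-sulphur centres, had a ratio of 0.868. Assembly factors and related genes stood at 0.0655 to 0.0692% in Lin-kit+ and at 0.108% and 0.104%, a ratio of 1.57, to which Cox7a2l contributed most of the UMIs.

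Gene by gene, edgeR's quasi-likelihood test on library sums called 80 of the 88 nuclear members lower and 1 higher in reporter-positive cells, where 30.4% of all 11991 genes tested were lower and 32.7% higher. The median log2 fold change of the nuclear members was -1.05, beside 0.07 over all genes. These changes are relative to TMM scaling, which assumes that most genes do not change. Scaled by library totals instead, the median over all genes moved by 0.54 to 0.60, 16.6% of all genes were called lower and 54.9% higher, and 64 nuclear members were lower and 3 higher with a median of -0.51. A gene can thus be lower under TMM while its CPM value is not, as for Sdha and Uqcrh. The Lin-kit+ libraries also hold many maturing cells, whose neutrophil markers summed to 80030 to 92668 CPM against 2216 and 796 in Fgd5+ and HSC-Fgd5+. Left out of the total, these markers moved the nuclear share to 3.65, 3.66 and 3.68% in Lin-kit+ and to 2.28 and 2.30% in the ZsGreen+ libraries. Summed markers of dividing cells were at 951 to 1052 CPM in Lin-kit+ against 477 and 572, those of monocytes at 1119 to 1167 against 86.4 and 52.2, and mature red cell RNA at 16.7 to 64.5 against 169 and 136, and their part in the result was not tested. In library sums, a different mix of cells and a different level per cell cannot be told apart.

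**Figure D2:**
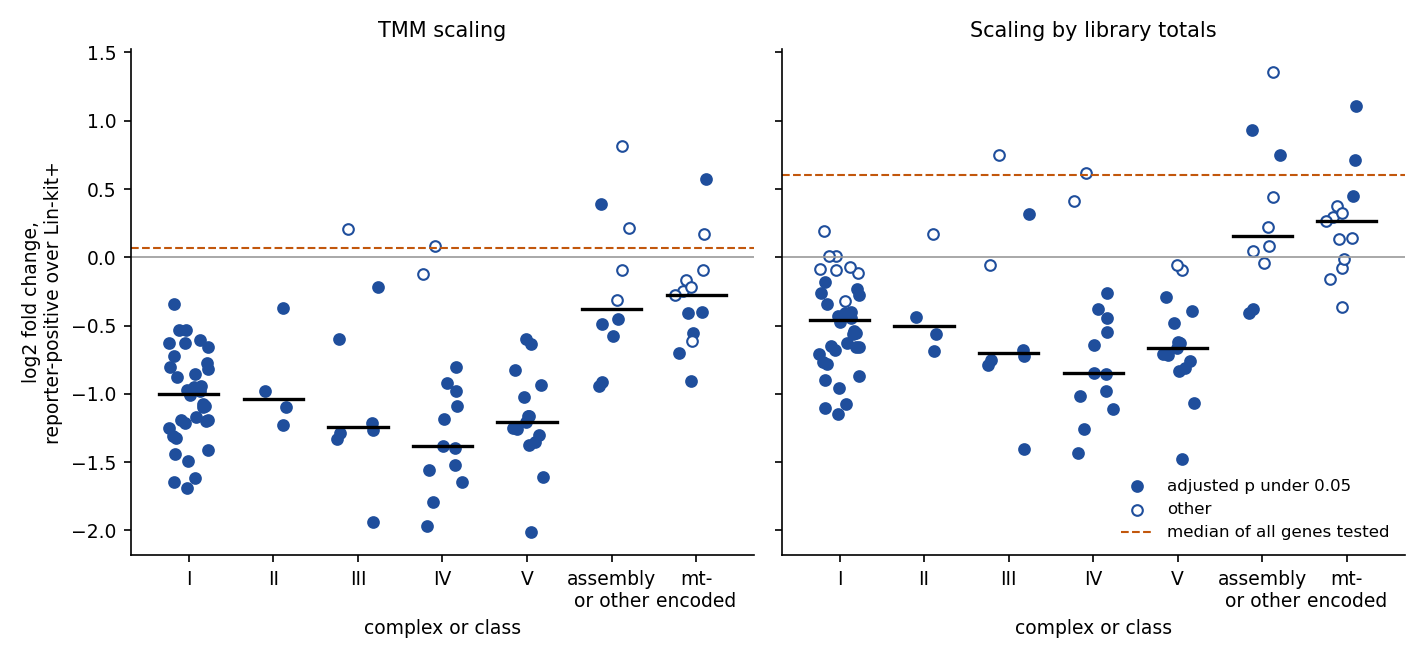
Log2 fold change (vertical axis, reporter-positive over Lin-kit+) of each member by complex or class, under TMM scaling (left) and library totals (right). Filled points had an adjusted p under 0.05, black bars are class medians, the dashed line is the median of all genes tested, and Cox6a2, at 0 UMIs in both ZsGreen+ libraries, is not drawn. The medians of complexes I to V lie below the dashed line under both scalings, while single members of complexes III and IV lie above it, and the mitochondrially encoded genes move across 0.

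In complex I, all 36 nuclear members were called lower, with a median of -1.0, and with library totals 28 were. The 3 largest changes were in small accessory subunits. Ndufa1 was at 241, 278 and 261 CPM in Lin-kit+ a, b and c and at 112 and 122 in Fgd5+ and HSC-Fgd5+ (log2 fold change -1.69, SE 0.09, adjusted p = 1.06e-05). Ndufb7 was at 407, 384 and 394 against 187 and 179 (-1.64, SE 0.07, adjusted p = 5.3e-06), and Ndufs6, at 265, 256 and 255 against 116 and 130, changed by -1.61 (SE 0.08, adjusted p = 6.54e-06). No library of either group overlapped with the other for these genes. The core subunits spread from -1.09 (Ndufv2) to -0.34 (Ndufs1, adjusted p = 0.028), and with library totals 3 of the 7 were lower. Ndufs1 itself had 35.1, 38.1 and 38.9 CPM against 39.3 and 47.1, and its change was 0.20 with library totals (adjusted p = 0.165). Ndufab1, the acyl carrier protein, was at 284, 260 and 156 in Lin-kit+, so that its 193 and 180 in the ZsGreen+ libraries lay between them, and it was called lower only with TMM (-0.86, adjusted p = 0.02).

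Complex II links the chain to the tricarboxylic acid (TCA) cycle, in which it is succinate dehydrogenase. Sdhb, its iron-sulphur subunit, was at 210, 195 and 214 CPM in Lin-kit+ and at 132 and 124 in the ZsGreen+ libraries (-1.23, SE 0.08, adjusted p = 2.17e-05). The membrane anchors Sdhc and Sdhd changed by -0.98 and -1.10. Sdha, the flavoprotein subunit, had 131, 145 and 157 CPM in Lin-kit+ and 160 and 164 in the ZsGreen+ libraries. Its TMM-scaled change was -0.37 (adjusted p = 0.00986), while library totals gave 0.17 (adjusted p = 0.145), so its direction depends on the scaling.

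In complex III, 7 of 8 members were lower. Uqcrq, a small accessory subunit, was at 458, 469 and 464 CPM in Lin-kit+ and at 179 and 171 in the ZsGreen+ libraries, the largest change of the complex (-1.94, SE 0.07, adjusted p = 3.03e-06). Uqcrb and the core protein Uqcrc1 changed by -1.33 and -1.29. Uqcrfs1, the Rieske iron-sulphur protein, was not called, and its 173, 96.1 and 38.6 CPM in Lin-kit+ a, b and c spanned a 4.47-fold range that takes in the 172 and 169 of the ZsGreen+ libraries. Uqcrh, the hinge protein, named after its values were seen, had 646, 636 and 654 against 837 and 770 and was called lower under TMM (-0.22, adjusted p = 0.0323) and higher with library totals (0.32, adjusted p = 0.005).

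Complex IV held 13 lower members of 15. Cox7b was at 537, 542 and 541 CPM in Lin-kit+ and at 196 and 204 in Fgd5+ and HSC-Fgd5+ (-1.97, SE 0.07, adjusted p = 2.44e-06). Cox6a1, the widely expressed subunit VIa isoform, was at 590, 597 and 582 against 221 and 274 (-1.80, SE 0.10, adjusted p = 1.07e-05). Ndufa4, first described in complex I and now placed in complex IV, was at 1159, 1190 and 1272 against 559 in both (-1.65, SE 0.07, adjusted p = 5.55e-06). Cox4i1, the largest nuclear-encoded subunit, fell less, from 1141, 1060 and 1095 to 923 and 906 (-0.80, adjusted p = 8.24e-05). Cox5a was called lower (-1.56, adjusted p = 0.00504), but Lin-kit+ c, at 320, stood apart from a and b at 729 and 629.

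All 15 members of complex V were lower. Atp5o, the stalk subunit that confers sensitivity to oligomycin, was at 469, 443 and 485 CPM in Lin-kit+ and at 157 and 179 in the ZsGreen+ libraries (-2.01, SE 0.08, adjusted p = 4.47e-06). Atp5k changed by -1.37 (SE 0.10). The catalytic beta subunit Atp5b was at 908, 857 and 840 against 545 and 583 (-1.16, adjusted p = 1.92e-05).

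The proton-conducting c subunit showed a change within a gene set. Atp5g1, Atp5g2 and Atp5g3 encode the same mature protein behind different import sequences. Atp5g1 was at 765, 708 and 745 CPM in Lin-kit+ and at 358 and 346 in the ZsGreen+ libraries (-1.61, SE 0.07), Atp5g2 at 668, 630 and 640 against 630 and 611 (-0.60, SE 0.07), and Atp5g3 at 262, 289 and 285 against 185 and 176 (-1.16, SE 0.08). Shares within the set do not depend on scaling, and UMIs counted from transcript ends do not grow with gene length. Of the UMIs of all 3 genes, Atp5g1 made 45.1%, 43.5% and 44.6% in Lin-kit+ and 30.5% in both ZsGreen+ libraries. Atp5g2 made 39.4%, 38.7% and 38.3% against 53.7% and 53.9%, so that the order of these genes was exchanged, with no overlap between the groups. Their order also varied among classes of Lin-kit+ cells, as given below. Atp5g3 stayed between 15.5% and 17.7% in all 5 libraries. With library totals, Atp5g2 alone of the 3 was not called (-0.06, adjusted p = 0.469).

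Assembly factors and related genes were mixed, with 5 of 10 lower and 1 higher. Ndufaf3 and Ndufaf4, both needed to build complex I, changed by -0.94 and -0.91. Cox7a2l, which joins complexes III and IV into supercomplexes, was at 413, 381 and 390 CPM in Lin-kit+ and at 779 and 726 in Fgd5+ and HSC-Fgd5+ (0.39, SE 0.07, adjusted p = 0.00312), and changed by 0.93 with library totals. Atp5sl, known as a complex I assembly factor in spite of its name, had 17.8, 15 and 15 against 24.5 and 29.5, and was higher with library totals only (0.75, adjusted p = 0.00291). Ndufaf6 was not called, and Lin-kit+ a, b and c differed in it, at 12.2, 5.73 and 3.16.

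Isoforms known mainly from single tissues differed in level. Cox6a2, the form of subunit VIa typical of heart and skeletal muscle, was at 8.70, 8.40 and 8.04 CPM in Lin-kit+, from 534 UMIs, and at 0 of 6335022 UMIs in the ZsGreen+ libraries. Set against 3 counts over both ZsGreen+ libraries, it was at least 17.7-fold lower. The Lin-kit+ mean mixes unlike cells, since LMPP-like cells held 380 of these UMIs and monocyte-like cells 103. HSC-like Lin-kit+ cells held 3 (1.40 CPM) and megakaryocyte-like cells 0. Cox4i2 (1.75 to 2.20 against 2.88 and 3.23) and Cox7a1 (1.27 to 1.98 against 2.40 and 1.38) were not called. Cox6b2, known mainly from testis, made 10.4 to 10.8% of the Cox6b1 and Cox6b2 UMIs in Lin-kit+ and 11.9% and 13.1% in the ZsGreen+ libraries, although both genes were lower (-1.18 for Cox6b1 and -0.92 for Cox6b2). Cox7a2, the form of subunit VIIa found in most tissues, changed by -1.52, and Cox8a by -0.98.

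**Figure D3:**
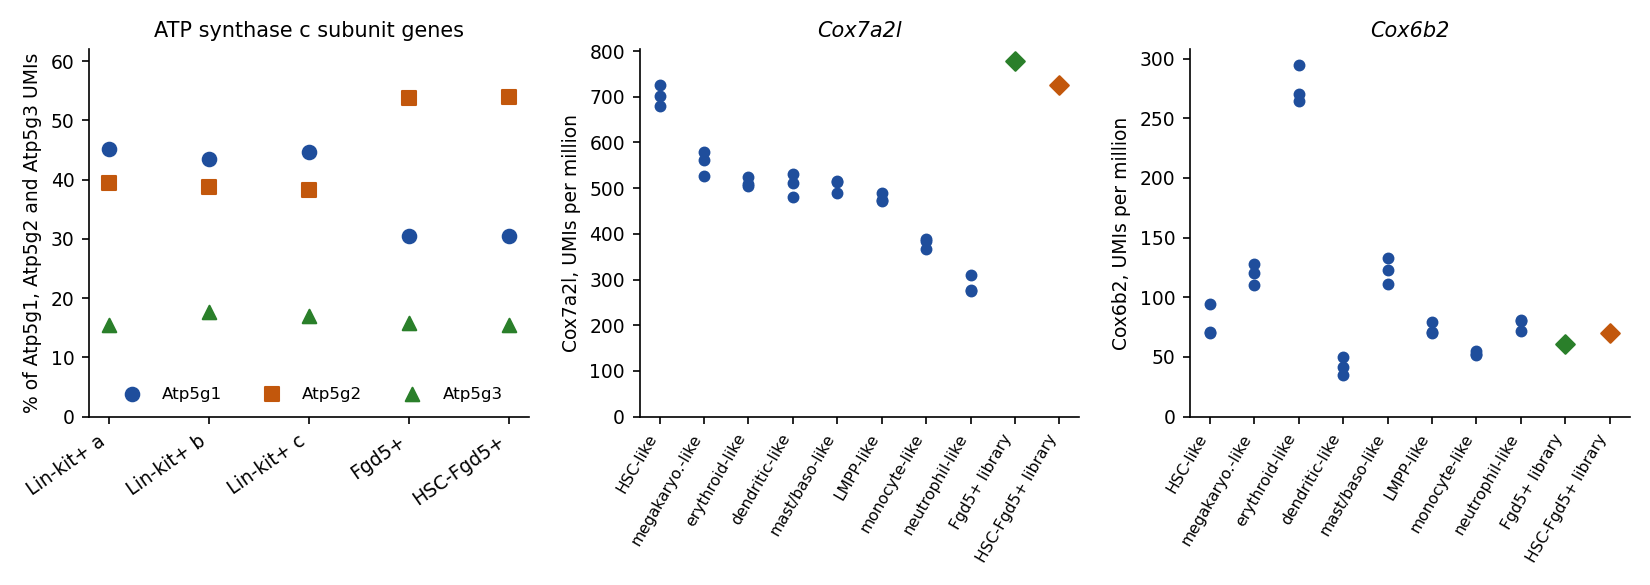
Left, share (%) of the Atp5g1, Atp5g2 and Atp5g3 UMIs taken by each gene, by library. Middle and right, CPM of Cox7a2l and Cox6b2 in classes of Lin-kit+ cells (3 points, 1 per library) and in the ZsGreen+ libraries (diamonds). Atp5g1 and Atp5g2 change places between the sorts, Cox7a2l is highest in HSC-like cells among the classes, and Cox6b2 is highest in erythroid-like cells.

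Of the 13 mitochondrially encoded genes, 5 were lower (mt-Nd1, mt-Nd2, mt-Nd3, mt-Nd4l and mt-Nd4) and 1 was higher (mt-Nd6) under TMM, where 30.4% of all genes were lower and 32.7% higher, with a median of -0.27. With library totals edgeR called 0 lower, also at an unadjusted p under 0.05, and 3 higher, mt-Co1, mt-Cytb and mt-Nd6. The median was then 0.27, beside 0.60 over all genes, of which 54.9% were higher. Over all cells, the direction of these counts thus depends on the scaling, while the median lay below that of all genes under both. DESeq2 called 5 lower and 0 higher, with 1 higher at an unadjusted p under 0.05. Of all 13657 genes that DESeq2 tested, 3720 were lower and 3357 higher. The count also depends on single libraries, with 10 lower without HSC-Fgd5+, 2 without Fgd5+ and 3 without Lin-kit+ b. Without cells of 10% or more mitochondrial UMIs, 10 were lower under TMM, where 3632 of all 12070 genes tested were lower. With library totals 1 was lower, beside 1980 of all genes. The medians in these cells were -0.44 and 0.09, beside 0.07 and 0.59 over all genes.

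Shares within the mitochondrially encoded UMIs do not depend on that scaling. mt-Co1, the catalytic subunit of complex IV, made 14.8%, 15.4% and 15.1% of them in Lin-kit+ and 20.7% and 18.9% in Fgd5+ and HSC-Fgd5+. mt-Nd1, of complex I, made 9.03%, 8.72% and 8.67% against 5.25% and 5.59%. Neither gene overlapped between the groups, and both shares stayed so without cells of 10% or more (mt-Co1 20.7% and 19.2%, mt-Nd1 5.25% and 5.49% in the ZsGreen+ libraries). mt-Nd6, the only protein encoded on the opposite strand, rose from 8.37 to 8.80 CPM to 17.8 and 19.4 (0.58, SE 0.13, adjusted p = 0.00686), with 665 UMIs in all libraries. mt-Cytb, of complex III, made 9.84 to 10.1% against 10.6% and 10.9%.

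mt-Nd3 and mt-Nd4 also took smaller shares in both ZsGreen+ libraries, mt-Nd4 with 5.65%, 5.54% and 5.37% in Lin-kit+ against 4.99% and 4.74%. The shares of mt-Nd5, mt-Nd2, mt-Atp8 and mt-Co3 overlapped between the groups. mt-Atp6 and mt-Co2 made 24.0 to 24.2% and 9.71 to 9.96% in Lin-kit+ and, slightly lower, 22.6% and 23.5%, and 9.60% and 9.61%, in the ZsGreen+ libraries. mt-Atp8 overlaps mt-Atp6 on 1 transcript, as mt-Nd4l does mt-Nd4, so these counts cannot be separated fully. mt-Atp8 was at 80.5 CPM in Lin-kit+ a and at 167 and 179 in b and c. How the counting treated reads shared with nuclear copies of mitochondrial DNA is not given in the sources used here.

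**Figure D4:**
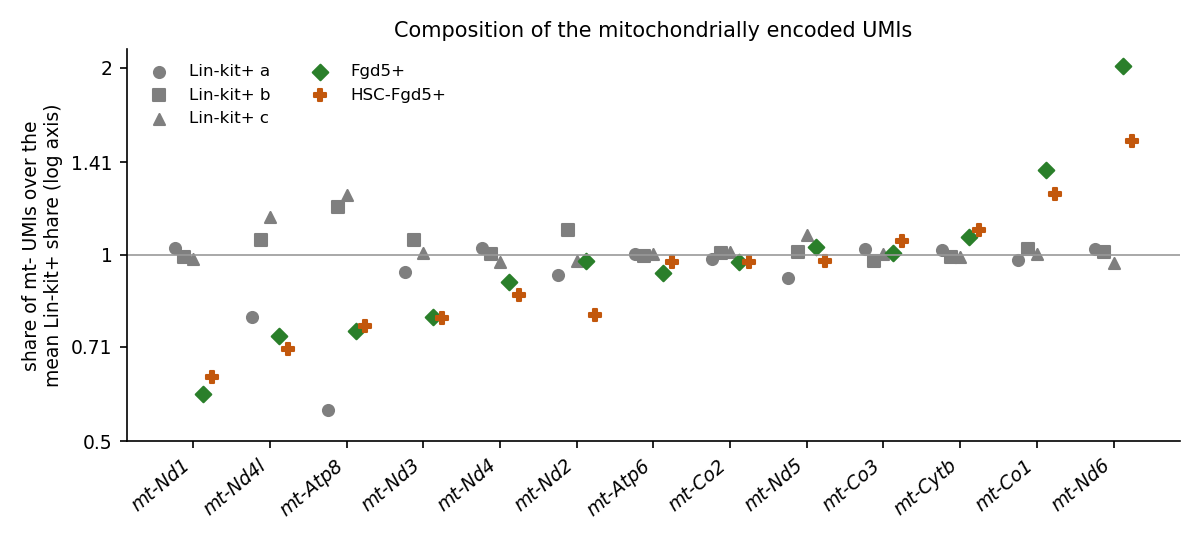
Share of each gene among all mitochondrially encoded UMIs, divided by its mean share in the Lin-kit+ libraries (log axis), for each of the 5 libraries. In both ZsGreen+ libraries mt-Nd1 lies lowest of the 13 genes, and mt-Co1 and mt-Nd6 lie above all Lin-kit+ points.

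Genes around the chain were counted from chosen lists, all genes tested serving as the background given above. Of 13 TCA cycle genes, 11 were lower and 1 higher under TMM, and 9 lower and 2 higher with library totals, with medians of -0.94 and -0.41. Fh1, which makes malate from fumarate, was at 95.5, 95.2 and 99.3 CPM against 48.5 and 48.0 (-1.54, adjusted p = 8.88e-06), while Idh3b, an isocitrate dehydrogenase subunit, was higher (0.28, adjusted p = 0.0227). Of 9 genes of pyruvate entry, 5 were lower and 2 higher under TMM, and 3 lower and 3 higher with library totals. Mpc1, a subunit of the mitochondrial pyruvate carrier, was at 287, 306 and 333 against 121 and 101 (-2.00, SE 0.11, adjusted p = 1.21e-05). The genes higher under TMM, Pdk1 and Pdk2, encode kinases that switch off pyruvate dehydrogenase, and Pdk2 was at 1.5, 1.77 and 1.33 against 13.7 and 11.5 (2.55, SE 0.23, adjusted p = 8.33e-05).

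Among 11 carriers and exchange genes, edgeR called 7 lower and 0 higher, as it did at an unadjusted p under 0.05, and DESeq2 called 8 and 0. Slc25a4, an ADP/ATP carrier, changed by 0.03 (adjusted p = 0.756) and was higher with library totals (0.57). Cycs, cytochrome c itself, had the largest change, from 668, 723 and 762 CPM to 156 and 135 (-2.83, SE 0.11, adjusted p = 3.16e-06). A second ADP/ATP carrier, Slc25a5, was at 1308, 1395 and 1547 against 629 and 593 (-1.75, adjusted p = 1.06e-05). Of 76 tested mitochondrial ribosome genes, which translate the 13 mitochondrial messages, 63 were lower and 1, Mrpl52, higher, with a median of -0.90. With library totals 46 were lower and 8 higher, with a median of -0.36.

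Of 30 assembly and insertion genes outside the member symbols, 16 were lower and 5 higher under TMM, but 2 lower and 12 higher with library totals. Sdhaf1 and Cox11 were among the higher genes, and the Lin-kit+ libraries differed in both (8.10, 2.41 and 1.64, and 6.8, 2.94 and 1.4 CPM). Of 11 genes for mitochondrial DNA upkeep and transcription, 3 were lower and 0 higher under TMM (4 and 0 at an unadjusted p under 0.05, and 3 and 0 by DESeq2) and 2 lower and 4 higher with library totals. Tfam, which packages and transcribes mitochondrial DNA, was at 46.7, 45 and 46.6 against 71.5 and 64.2 (0.03, adjusted p = 0.82, and 0.56, adjusted p = 0.00111, with library totals).

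Regulators of mitochondrial biogenesis gave 2 lower (Esrra and Myc) and 1 higher of 9. Ppargc1a, the coactivator PGC-1alpha, had 0, 1 and 3 UMIs in Lin-kit+ a, b and c, or 0, 0.0535 and 0.0831 CPM, and 3.84 and 2.77 CPM in Fgd5+ and HSC-Fgd5+ (adjusted p = 0.000185). Esrra, an oestrogen-related receptor, changed by -0.91 (adjusted p = 0.0368) and, no longer called, by -0.38 with library totals (adjusted p = 0.315). Nrf1 (-0.30), Gabpa (-0.34) and Yy1 (-0.38) were not called and turned positive with library totals, as did Myc (-0.34, adjusted p = 0.00862; 0.19 with library totals). Ppargc1b (0.45) and Pprc1 (-0.09) were not called, but with library totals Ppargc1b was higher (0.98, adjusted p = 0.00334). The list then held 0 lower genes, also at an unadjusted p under 0.05 in edgeR, and 3 higher ones, where DESeq2 called 2 lower and 1 higher.

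Part of the difference from Lin-kit+ cells was also present against Lin-kit+ cells of the HSC-like class. Clusters were made without the members, and 649 Lin-kit+ cells fell into that class, 621 of them in cluster c10. The name rests on 6 of 10 HSC markers, none of which is among its 10 leading genes, such as Wfdc17, Vldlr and Paqr5. It also depends on the resolution: at 0.5, 46 Lin-kit+ cells were HSC-like, and a cluster led by Wfdc17 and Vldlr was named LMPP-like. The comparison was not repeated with those classes. The reporter-positive cells lay mostly in another HSC-like cluster, c1, with 1218 cells. Cd48 was at 188 CPM in the Lin-kit+ cells of c10 and at 0.367 in the reporter-positive cells of c1. Slamf1 was at 2.42 and 40.1 CPM in the same cells. In both genes c10 was at the level of the whole Lin-kit+ libraries, while its Ly6a (143 CPM) and Procr (42.2) were above them. Of 85 nuclear members tested, edgeR called 46 lower and 0 higher in reporter-positive cells. Of the 8437 genes tested, 12.0% were lower and 1051 genes were higher. At an unadjusted p under 0.05 the member counts were 57 and 0. DESeq2 called 39 and 0 members, beside 713 lower and 461 higher of 11760 genes. The median of the members in edgeR was -0.43, beside 0.05 over all genes tested. With library totals, 642 of the 8437 genes were lower and 1416 higher. The count of lower nuclear members was 29 with library totals. Complex V had 13 lower of 15, complex I 18 of 36, complex IV 8 of 12, complex III 5 of 8 and complex II 1 of 4.

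Ndufa4 had the largest change in this comparison (-1.40, SE 0.09, adjusted p = 1.49e-05), followed by Cox7b (-1.06, adjusted p = 0.000154) and Atp5o (-0.92, adjusted p = 0.00102). Cox7a2l, at 702, 680 and 725 CPM in HSC-like Lin-kit+ cells, differed by -0.05 (SE 0.09, adjusted p = 0.746). Of the 13 mitochondrially encoded genes, edgeR called 0 in either direction (1 lower and 1 higher at an unadjusted p under 0.05), as did DESeq2. Without cells of 10% or more mitochondrial UMIs, edgeR called 4 of them lower, beside 1026 of all 8397 genes tested.

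Among Lin-kit+ cells, the nuclear share varied with lineage. Classes were named from markers, as X-like, and their shares are a description, because clusters of the same cells define them. Only the 8 classes with at least 10 cells in each Lin-kit+ library were ranked. B-lymphoid-like, T- or NK-like and eosinophil-like cells were too few. Monocyte-like cells were highest with 3.88% ± 0.0151 (SD, n = 3 libraries) of non-mitochondrial UMIs. Lymphoid-primed multipotent (LMPP)-like cells followed with 3.39% ± 0.0104 and erythroid-like cells with 3.38% ± 0.0702, which did not differ beyond their spread. Megakaryocyte-like cells had 3.13% ± 0.00851, dendritic-like cells 3.01% ± 0.0729 and neutrophil-like cells 2.96% ± 0.0208, the last pair again within the spread. Mast- or basophil-like cells with 2.85% ± 0.0137 and HSC-like cells with 2.83% ± 0.0502 were lowest of the 8 and overlapped. B-lymphoid-like cells, not ranked, had 2.57% in 10 cells of Lin-kit+ b and 2.61% in 12 cells of Lin-kit+ c. The order depends on the clustering, for at resolution 0.5 a smaller erythroid-like class was highest (4.05% ± 0.127, monocyte-like 3.85% ± 0.00499). With 30 neighbours mast- or basophil-like cells (2.85%) lay below HSC-like cells (2.95%). LMPP-like cells had 3.12% at resolution 0.5. With 30 neighbours they had 3.02%, below megakaryocyte-like (3.15%) and close to dendritic-like cells (3.01%), and 734 cells were then unnamed. The shares of the whole ZsGreen+ libraries, 2.27% and 2.30%, were below each of these 8 classes.

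Mitochondrially encoded shares followed another order. Monocyte-like cells had 3.61% ± 0.0605 of all UMIs, HSC-like cells 3.50% ± 0.173 and LMPP-like cells 3.43% ± 0.0715, and dendritic-like cells were lowest with 2.78% ± 0.133. HSC-like cells, mostly the Cd48-expressing cluster c10, had a low nuclear share beside a high mitochondrial one. Their ratio of mitochondrial to nuclear OXPHOS UMIs was 1.29 ± 0.0834, while the other 7 ranked classes lay between 0.940 (erythroid-like) and 1.08 (mast- or basophil-like). This gap depends on the clustering, since with 30 neighbours the ratio was 1.18 ± 0.0649 in HSC-like and 1.18 ± 0.00589 in LMPP-like cells, and at resolution 0.5 it was 1.62 ± 0.262 in 46 HSC-like and 1.12 in LMPP-like cells. Among the classes too small to be ranked, B-lymphoid-like cells had higher ratios, 2.19 in Lin-kit+ b and 1.83 in Lin-kit+ c. T- or NK-like cells had 1.18 and 1.24 in these libraries, and eosinophil-like cells had 1.14 in Lin-kit+ c. Without cells of 10% or more mitochondrial UMIs, monocyte-like cells remained highest and HSC-like cells lowest in the nuclear share of the ranked classes.

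Among the ranked classes, members were most often highest in the monocyte-like one. Of 97 members with at least 500 UMIs in Lin-kit+ cells, 53 had their highest class mean in monocyte-like and 19 in erythroid-like cells. The lowest mean was in HSC-like cells for 31, in neutrophil-like cells for 26 and in dendritic-like cells for 23. The same was not counted over all genes, so these numbers only describe the members. Compared without overlap between the 3 libraries, 62 of 84 nuclear members were higher in monocyte-like than in HSC-like cells, where 25.3% of all 6801 genes compared were. In erythroid-like cells 47 of 84 were higher than in HSC-like cells, against 17.0% of all genes.

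Neutrophil-like clusters covered the widest range. From cluster c6, with Gfi1 and Ctsg among its leading genes, over c3, c7 and c9 to c5, led by the secondary granule genes Ltf and Lcn2, the nuclear share was 3.87% ± 0.0624, 3.52% ± 0.0246, 2.84% ± 0.0239, 2.23% ± 0.0115 and 1.77% ± 0.0113. The mitochondrial share was 3.58%, 3.6%, 2.92%, 2.19% and 1.66%. Neutrophil markers alone took 4.36% of the UMIs of c6, 24.1% of c7 and 46.9% of c5. With these genes left out of the total, the nuclear share was 4.05% in c6, 3.94% in c3, 3.77% in c7, 3.6% in c9 and 3.38% in c5. In the whole neutrophil-like class it was then 3.83% ± 0.0112, above every class but the monocyte-like one with 3.97% ± 0.0190, so the place of these cells depends on the total chosen. Erythroid-like cells also fell into unlike clusters, with 4.08% ± 0.179 in c16, which held Rhag and Car1 among its leading genes, and 2.75% ± 0.0274 in c8. The name of c8, with 702 of the 980 erythroid-like cells, rests on 6 of 10 erythroid markers, none among its leading genes. At resolution 0.5, a cluster led by Pf4, Rec114 and Pdzph1 was megakaryocyte-like, and 273 Lin-kit+ cells were erythroid-like.

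**Figure D5:**
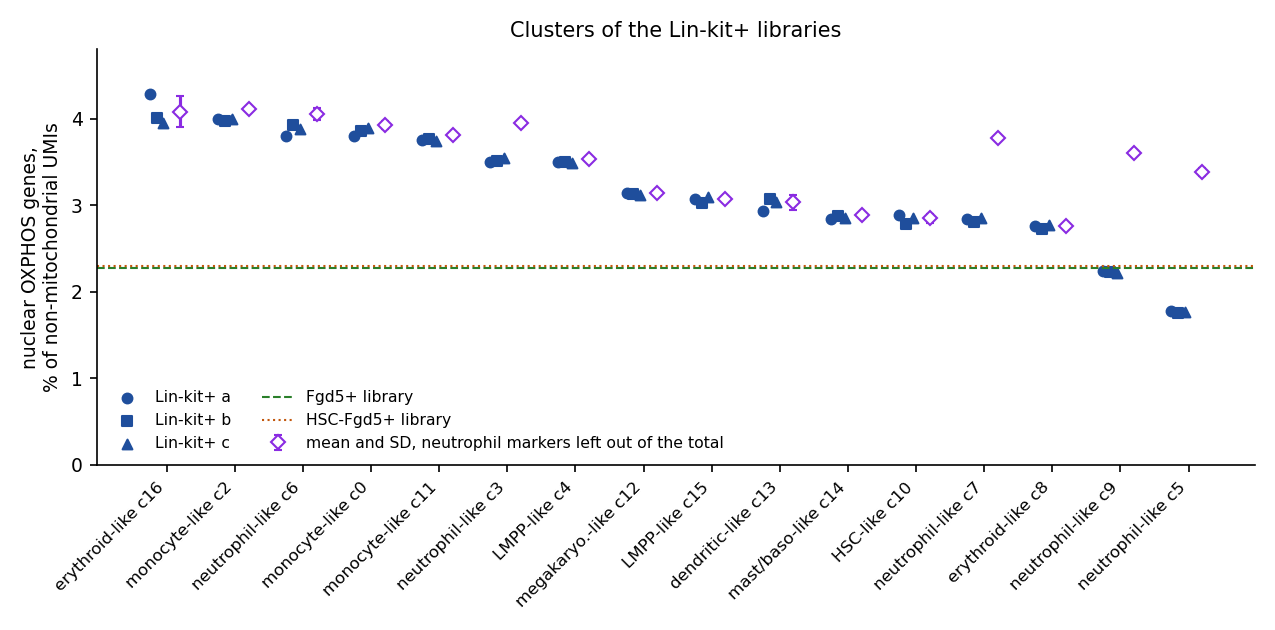
Nuclear OXPHOS share (%, of non-mitochondrial UMIs) in each cluster of the Lin-kit+ libraries with 3 libraries represented, 1 blue point per library, and with neutrophil markers left out of the total (open diamonds, mean and SD of 3 libraries). Horizontal lines mark the ZsGreen+ libraries at 2.27 and 2.30%. Only the neutrophil-like clusters c9 and c5 lie below these lines, and both rise above them in the second measure.

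A few members departed from the common order. Cox6b2 was at 277 ± 16.1 CPM in erythroid-like cells and at 42 ± 7.34 in dendritic-like cells, with 122 and 120 in mast- or basophil-like and megakaryocyte-like cells. Atp5g1 was also highest in erythroid-like cells (1040 ± 69.9) and lowest in dendritic-like cells (398 ± 40.1), whereas Atp5g2 was highest in megakaryocyte-like (913 ± 72.6) and lowest in neutrophil-like cells (480 ± 9.52). In class means, dendritic-like cells thus held less Atp5g1 than Atp5g2 and erythroid-like cells more. The order seen in the ZsGreen+ libraries was therefore not particular to them. Ndufaf4 ranged from 105 ± 17.6 in erythroid-like to 29.9 ± 7.63 in dendritic-like cells, and Atp5sl from 28.5 ± 6.77 in LMPP-like to 7.89 ± 1.35 in neutrophil-like cells. Cox7a2l was highest in HSC-like cells with 702 ± 22.7, followed by 555 in megakaryocyte-like and 513 in erythroid-like cells, and lowest in monocyte-like (380 ± 11.7) and neutrophil-like cells (288 ± 19.4).

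Cox6a2 was concentrated in 1 cluster. Of its 534 UMIs, 317 (59.4%) came from c15, which holds 3.52% of Lin-kit+ cells and has Dntt, Il7r and Siglech among its leading genes. It was at 264, 171 and 150 CPM in c15 of Lin-kit+ a, b and c, and 36.5% of c15 cells held at least 1 UMI. Of related clusters, the 26 B-lymphoid-like cells were at 115 CPM (15.4% of cells with a UMI), and 5.60% of cells in the LMPP-like cluster c4 and 5.05% in the monocyte-like cluster c11 held one. Among erythroid-like cells 0.102% and among neutrophil-like cells 0.303% held 1, at medians of 3210 and 5496 UMIs per cell against 4022 in c15.

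Within the ZsGreen+ libraries, the nuclear share was higher in the small cluster c17, which had 8 markers of dividing cells, than in c1. Its 44 cells in Fgd5+ and 27 in HSC-Fgd5+ had nuclear shares of 2.73% and 2.95%, against 2.20% and 2.19% in the 733 and 485 cells of c1. The mitochondrial shares were 2.87% and 3.16% in c17 and 3.42% and 5.0% in c1. Cells of c17 had medians of 9725 and 9960 UMIs, cells of c1 of 4202 and 3601. In c1 without cells of 10% or more mitochondrial UMIs, the shares were 2.20% and 2.22% (nuclear) and 3.40% and 3.98% (mitochondrial). The nuclear share of c17 in HSC-Fgd5+ was above the HSC-like (2.83%) and mast- or basophil-like (2.85%) classes of Lin-kit+ cells. In Fgd5+ the share of c17, at 2.73%, was below all 8 ranked classes, and that of c1 was below them in both libraries.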

How the data were processed

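The deposited table holds UMI counts per gene and cell, which the authors made with Cell Ranger after combining consecutive sequencing runs of Chromium 3' v2 libraries. The submitters' processing notes list Cell Ranger 1.3 and 2.1, Seurat 2.3.4 and mm10, without saying which version counted which library. Aligner settings and use of strand are not given in the sources used here. No normalization was in the table.

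Members and gene lists were chosen with earlier results of these data known, so counts over them are a description. UMIs were summed per library, depth ranging from 2166655 to 36080242 UMIs, and tested with edgeR 4.0.16 (TMM, its filter on low counts, quasi-likelihood, Benjamini-Hochberg adjustment over all genes, threshold 0.05, R 4.3.3), after a test on simulated data. Alternatives were DESeq2 1.42.0, library totals, cells under 10% mitochondrial UMIs, no Scrublet doublets (165 cells), 519 cells per library, no filter, and each library left out. Shares were compared by exact permutation tests. Clusters came from 2000 variable genes without members or Fgd5, 20 components, 15 neighbours and Leiden at resolution 1 (scanpy 1.11.5), named by markers with thresholds set after the clusters had been seen. Named genes were the mitochondrially encoded genes, isoform sets, complex II, listed regulators, per complex the 3 largest changes that passed the test with at least 100 UMIs and no overlap, and the 5 nuclear members that varied most by lineage. Motifs were searched in RefSeq windows.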

Additional observations from a re-analysis of the deposited data

How the results depend on the processing

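Against Lin-kit+ cells, the count of lower nuclear members (80) was within 1.5 times under every alternative run, from 63 to 80. Higher nuclear members (1) numbered 3 with library totals, also without cells of 10% or more mitochondrial UMIs, and 1 to 2 when a library was left out. Lower mitochondrially encoded genes (5) numbered 0 with library totals, 10 without cells of 10% or more, 1 with both, and 2 to 10 when a library was left out. Higher ones (1) numbered 0 by DESeq2, 3 with library totals, with or without those cells, and 1 to 2 when a library was left out. Against HSC-like Lin-kit+ cells, 46 lower members became 29 with library totals and 25 to 51 when a library was left out, and 0 higher ones became 0 to 1. The monocyte-like minus HSC-like difference in the nuclear share (1.05 points) was 1.38 at clustering resolution 0.5, 0.904 with 30 neighbours and 1.14 without neutrophil markers in the total, and at resolution 0.5 the highest class was erythroid-like. In the mitochondrial share it turned from 0.11 to -0.235 at resolution 0.5, and ranged from -0.00473 to 0.186 when a library was left out.

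With library totals, log2 fold changes turned positive for mt-Nd2 (0.13), mt-Co2 (0.29), mt-Atp6 (0.27), mt-Co3 (0.38), mt-Nd4 (0.14), mt-Nd5 (0.32), mt-Cytb (0.45), Sdha (0.17), Cox7a1 (0.41), Pprc1 (0.44), Nrf1 (0.23), Gabpa (0.20), Yy1 (0.16) and Myc (0.19), since the median of all genes moved by 0.54, and the same holds for Uqcrh, Ndufs1, Ndufs7, Ndufaf2 and Ndufaf7, which were lower under TMM. With library totals and without cells of 10% or more, they were positive for mt-Nd2 (0.035), mt-Co2 (0.12), mt-Atp6 (0.086), mt-Co3 (0.20), mt-Nd5 (0.16), mt-Cytb (0.28), Sdha (0.17), Cox7a1 (0.33), Pprc1 (0.39), Nrf1 (0.23), Gabpa (0.10), Yy1 (0.16) and Myc (0.17). DESeq2 turned Cox4i2 (-0.016) and Tfam (-0.056), no filter Tfam (-0.040) and equal cell numbers Pprc1 (0.16). When a library was left out, the sign turned for mt-Co1 (-0.044 without HSC-Fgd5+ to 0.33 without Fgd5+), mt-Co3 (-0.49 without HSC-Fgd5+ to 0.078 without Fgd5+), mt-Cytb (-0.40 without HSC-Fgd5+ to 0.14 without Fgd5+), Cox4i2 (-0.036 without Lin-kit+ c to 0.16), Cox7a1 (-0.70 without Fgd5+ to 0.11 without HSC-Fgd5+), Pprc1 (-0.19 without Lin-kit+ a to 0.049 without Lin-kit+ b) and Tfam (-0.086 without Fgd5+ to 0.091 without HSC-Fgd5+). The cause was not tested for these other settings. No paired analysis was possible because the labels number no replicates. The smallest p that 3 against 2 libraries allow is 0.20, and genes with few UMIs, such as Cox7a1, Cox4i2 and Ppargc1a, are limited by depth.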
